A study of Mus musculus with 10 samples.

Results

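A set of 10 genes that mark intestinal crypt stem cells or respond directly to Wnt signalling was followed through 10 RNA-seq libraries of mouse colorectum: Lgr5, Ascl2, Axin2, Smoc2, Ephb2, Ephb3, Sox9, Rnf43, Znrf3 and Cdca7. They were chosen by gene symbol and make up 10 of the 23284 features in the deposited expression tables. All animals were BALB/c mice aged 7 weeks, and each group had 2 libraries. Mice of the first group were given 2% dextran sodium sulfate (DSS), a chemical that injures the colonic lining, and received miR-29a, with tissue taken on day 4. Another group received DSS and miR-29b, also with tissue taken on day 4. A negative control miRNA (NC-miR) was given with DSS to 2 more groups, which were sampled on day 4 and on day 2. The remaining group was untreated normal mice, listed as day 0. The miRNAs were packed in super carbonate apatite (sCA), a calcium-based nanoparticle carrier, and injected into a tail vein on days 1, 2 and 3 of DSS. There was no group with DSS alone or with the carrier alone, so every DSS group also carried sCA and an miRNA. The labels of the day 2 mice list the same injection days as those of day 4, although their tissue was taken earlier. The deposited library names do not show which NC-miR libraries belong to which day, so every NC-miR value by day rests on the sample labels.

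The colonic lining is renewed from stem cells at the base of each crypt. There, Wnt ligands bind Frizzled receptors with the co-receptors Lrp5 and Lrp6, beta-catenin is spared from destruction, and it switches on target genes together with TCF factors. Lgr5 is a receptor for R-spondins, which amplify the Wnt signal by clearing the ubiquitin ligases Rnf43 and Znrf3 that would otherwise remove Frizzled from the cell surface. Rnf43, Znrf3 and Axin2, a scaffold of the beta-catenin destruction complex, are themselves Wnt targets and act as negative feedback.

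The deposited values are headed FPKM but are log2 values relative to a baseline of each gene. A level is therefore comparable between libraries for 1 gene, and not between genes. Features with low signal had been raised to a common floor whose height in FPKM is not stated, and 10344 to 10605 features per library lay on it. All 11 pan-epithelial markers examined, among them Epcam, Cdh1 and Krt8, were above the floor in every library. Their mean relative to the normal mean was highest in the 2 miR-29b libraries, at 0.34 and 0.51 log2, and lay between -0.13 and 0.21 in the 8 others. Both NC-miR day 4 libraries stood apart in other tissue markers. Squamous keratins averaged 5.28 log2 above normal in replicate 1, against 0.14 in replicate 2, on 3 of 8 listed genes (Krt10, Krt13 and Krt14). In the same library Krt5 and Krt1 were above the floor, at 4.12 and 4.04 log2 relative to the normal mean, and they were at the floor in the 9 others. The remaining 3 genes of the list, Trp63, Krt4 and Dsg3, were at the floor in all 10 libraries. Smooth muscle genes averaged -0.38 log2 in replicate 2, against 0.12 in replicate 1. The part of these differences in the values below was not tested.

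The injected miRNAs belong to a single family. Their mature sequences, taken from RefSeq (GRCm38.p6), are shown because the shared seed, bases 2 to 8 in capitals, is what a target site pairs with.
mmu-miR-29a-3p: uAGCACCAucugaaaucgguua
mmu-miR-29b-3p: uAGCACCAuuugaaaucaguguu
Aligned from the 5′ end, the mature forms differ at 4 of 22 positions, all outside the seed. The labels do not give the sequences that were injected.

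The letters opposite the seed, TGGTGCT, were searched on the sense strand of the longest annotated 3′ UTR of each gene (GENCODE M21 transcripts). They occurred in 3 of the 10 genes, against 13.1% of 21005 genes with such a UTR. The median UTR was 1364 bases in the 10 genes and 961 bases in all genes. These 3 matches are shown 5′ to 3′ with the match in capitals.
Ephb3, chromosome 16: cctaccctTGGTGCTgtcataaa
Rnf43, chromosome 11: tccctggcTGGTGCTcagggagg
Cdca7, chromosome 2: tctgtctgTGGTGCTcagttgga
They begin at base 521, 578 and 1038 of the UTR. None has an A opposite base 1 of the miRNA, which marks the stronger type of site. A match describes letters only and is not a tested site. Upstream sequence was available for 6 of the 10 genes (Ascl2, Axin2, Ephb2, Ephb3, Rnf43 and Cdca7). In windows of 300 bases spanning their start sites, the letters CTTTGAT or CTTTGTT, forms of the TCF binding motif, were found on neither strand in any of the 6, against 9.33% of 32851 such windows.

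Lgr5 (chr10:115450314-115587780, mm10), the R-spondin receptor that defines cycling crypt stem cells, was barely above the floor. Its deposited log2 values were 0.27 and -0.20 in miR-29a mice, -0.21 and -0.20 in miR-29b mice, -0.20 and 0.82 in NC-miR mice at day 4, -0.13 and 0.00 in NC-miR mice at day 2, and -0.15 and -0.04 in normal mice. Both miR-29b libraries, miR-29a replicate 2 and NC-miR day 4 replicate 1 were at the floor, where small differences between libraries are not differences in Lgr5. The single high library, NC-miR day 4 replicate 2, was 2.08-fold above the floor. A fold against the miR-29b group has no meaning for Lgr5, and DSS and normal libraries overlapped.

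Ascl2 (chr7:142966822-142969264), a transcription factor that sets the identity of Lgr5-positive stem cells, had the widest spread. It was 1.14 and -0.23 in miR-29a mice, -1.20 and 0.02 in miR-29b mice, -1.20 and 0.49 in NC-miR mice at day 4, -0.53 and 0.29 in NC-miR mice at day 2, and 0.70 and 1.46 in normal mice. Both values of -1.20 were at the floor, and the highest library was 6.22-fold above it. The miR-29b and both NC-miR groups lay wholly below the normal libraries, while miR-29a overlapped them. Within each DSS group the pair of libraries differed by 0.82 to 1.69 log2.

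Smoc2 (chr17:14279490-14404790), a secreted matricellular protein enriched in Lgr5-positive cells, was 0.29 and -0.17 in miR-29a mice, -0.99 and -0.20 in miR-29b mice, -0.85 and 0.15 in NC-miR mice at day 4, 0.22 and 0.25 in NC-miR mice at day 2, and 0.22 and 0.08 in normal mice. The lowest values were in replicate 1 of miR-29b and of NC-miR day 4, the libraries in which Ascl2 was at the floor. Fibroblasts also make Smoc2, so its level in whole tissue is not that of the crypt alone.

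Among the feedback genes, Axin2 (chr11:108917828-108950783) was 0.83 and 0.12 in miR-29a mice, 0.07 and 0.26 in miR-29b mice, -0.43 and -0.08 in NC-miR mice at day 4, -0.67 and 0.23 in NC-miR mice at day 2, and 0.18 and 0.94 in normal mice. The NC-miR day 4 libraries were below all 4 miR-29 libraries and both normal libraries.

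Rnf43 (chr11:87663087-87735539) was 0.70 and 0.62 in miR-29a mice, 0.16 and 0.54 in miR-29b mice, 0.06 and 0.28 in NC-miR mice at day 4, 0.01 and 0.39 in NC-miR mice at day 2, and 0.22 and -0.10 in normal mice. Both miR-29a libraries were above all 8 others. This gene carries a seed match, shown above, and both miR-29 groups had means above those of the other 3 groups.

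Znrf3 (chr11:5276329-5444847), the partner of Rnf43, varied least, with a range of 0.54 log2. It was 0.20 and -0.06 in miR-29a mice, -0.33 and -0.24 in miR-29b mice, 0.21 and 0.16 in NC-miR mice at day 4, -0.18 and 0.10 in NC-miR mice at day 2, and 0.09 and -0.03 in normal mice. Both miR-29b libraries were below all 8 others.

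Ephb2 and Ephb3 encode receptor tyrosine kinases that sort cells along the crypt axis by repelling cells that carry ephrin-B. Ephb2 (chr4:136647536-136836326) was -0.20 and 0.11 in miR-29a mice, 0.35 and 0.52 in miR-29b mice, -0.06 and 0.01 in NC-miR mice at day 4, -0.48 and -0.35 in NC-miR mice at day 2, and -0.12 and 0.04 in normal mice. The miR-29b pair was the highest of the 10 libraries and the NC-miR day 2 pair the lowest. Ephb3 (chr16:21204620-21223309) was 0.20 and 0.06 in miR-29a mice, -0.59 and 0.30 in miR-29b mice, 0.14 and -0.16 in NC-miR mice at day 4, -0.29 and 0.03 in NC-miR mice at day 2, and 0.27 and 0.34 in normal mice. Only miR-29b overlapped the normal libraries for Ephb3, through its replicate 2.

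Sox9 (chr11:112782210-112787757), a transcription factor of the crypt base, was 0.64 and 0.34 in miR-29a mice, 0.29 and 0.76 in miR-29b mice, 0.41 and -0.09 in NC-miR mice at day 4, -0.29 and 0.67 in NC-miR mice at day 2, and -0.05 and -0.43 in normal mice. All 4 miR-29 libraries were above both normal libraries, and both NC-miR groups overlapped them. Cdca7 (chr2:72476187-72486892), a chromatin factor of dividing cells that Myc induces, was 0.39 and 0.21 in miR-29a mice, -0.53 and 0.36 in miR-29b mice, -0.48 and 0.21 in NC-miR mice at day 4, -0.31 and -0.21 in NC-miR mice at day 2, and 0.66 and 0.39 in normal mice. Of the DSS libraries 7 lay below both normal libraries, and miR-29a replicate 1, at 0.38577, tied with normal replicate 2, at 0.38588.

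**Figure D1:**
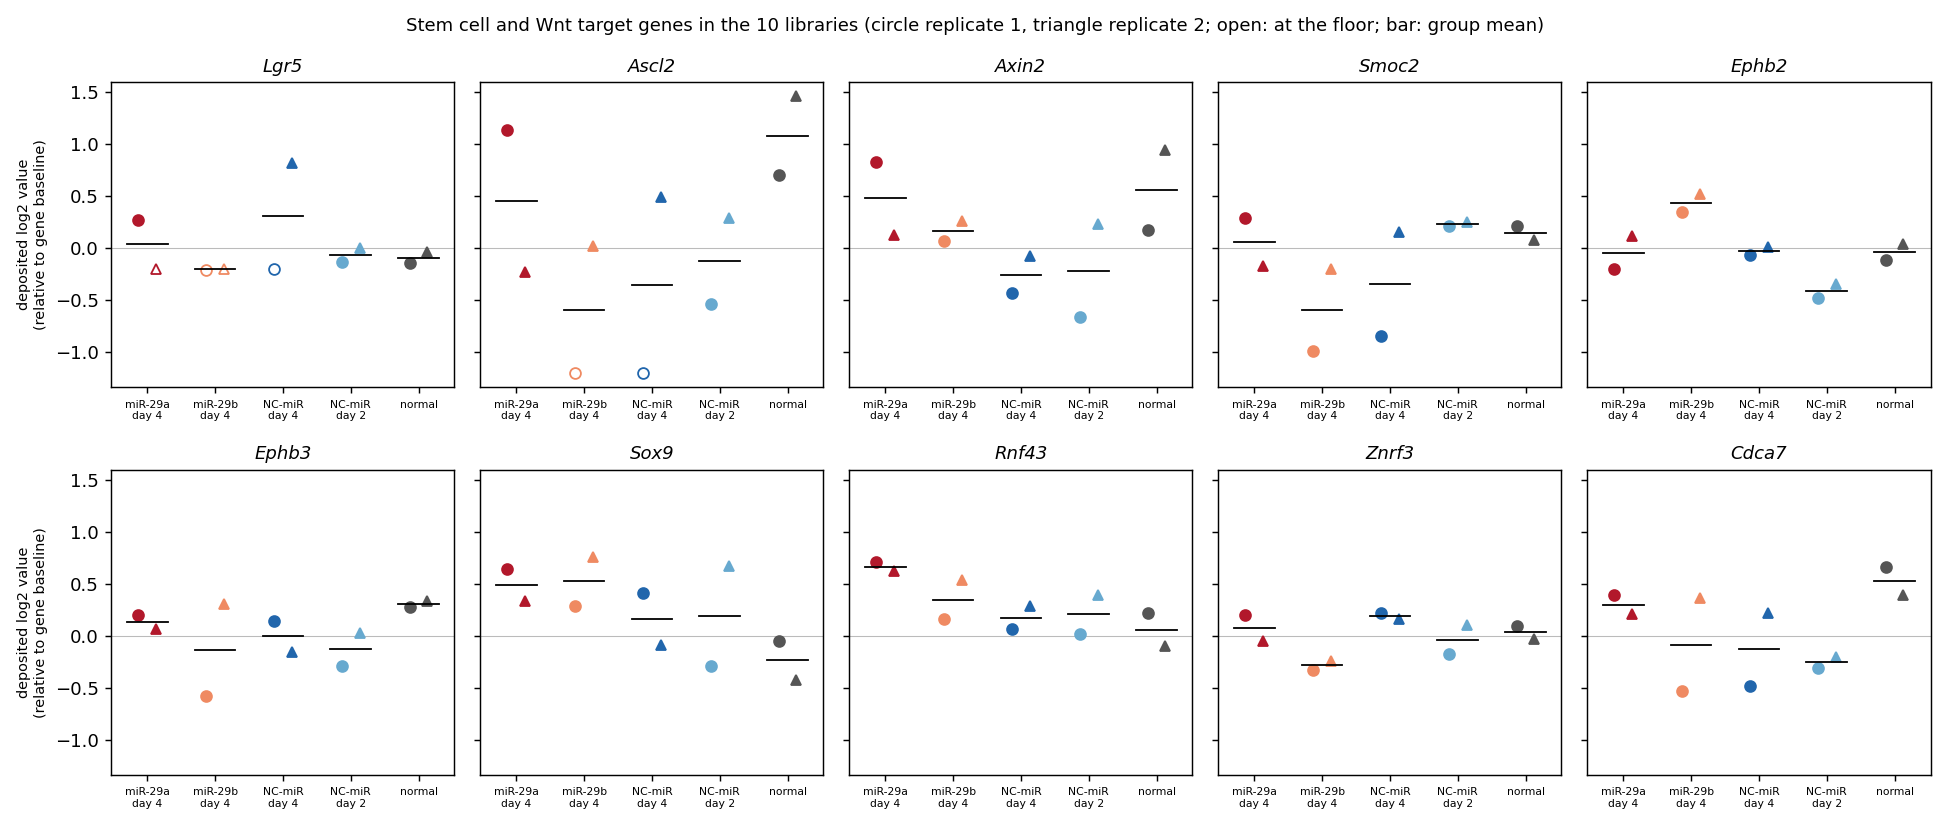
Deposited log2 value (relative to a baseline of each gene) of the 10 crypt stem cell and Wnt target genes in each of the 10 libraries, with 2 points and their mean per group and libraries at the floor marked. The paired points lie far apart for Ascl2 (up to 1.69 log2) and close together for Znrf3 (up to 0.28).

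The libraries of a group often differed as much as the groups. For 7 of the 10 genes the largest gap between replicates exceeded the range of the 5 group means, the exceptions being Ephb2, Rnf43 and Znrf3. When the groups were ordered by mean for each gene, neighbours overlapped in 33 of 40 pairs, and another pair was the tie of Cdca7 between the miR-29a and normal groups. For Ascl2 the order was normal at 1.08 ± 0.54, miR-29a at 0.45 ± 0.96, NC-miR day 2 at -0.12 ± 0.58, NC-miR day 4 at -0.35 ± 1.19 and miR-29b at -0.59 ± 0.87 (SD, n = 2 each), with every neighbouring pair overlapping. Ephb2 separated best, with miR-29b at 0.43 ± 0.12, NC-miR day 4 at -0.03 ± 0.05, normal at -0.04 ± 0.11, miR-29a at -0.04 ± 0.22 and NC-miR day 2 at -0.41 ± 0.09 (SD, n = 2 each). Its 3 middle groups overlapped, and the groups at both ends stood clear of them. The normal group had the highest mean for 4 genes (Ascl2, Axin2, Ephb3 and Cdca7), and miR-29b the lowest for 5 (Lgr5, Ascl2, Smoc2, Ephb3 and Znrf3). Both miR-29b libraries were at the floor for Lgr5. For Ascl2, replicate 1 of miR-29b was at the floor, tied with replicate 1 of NC-miR day 4.

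Single libraries carried much of the pattern. MiR-29a replicate 1 was among the 3 highest libraries for 8 of the 10 genes. NC-miR day 2 replicate 1 was among the 3 lowest for 8, and replicate 1 of NC-miR day 4 and of miR-29b for 6 each. Both counts of 6 include Lgr5, for which 4 libraries were tied at the floor. Across the 10 libraries Ascl2 ran with Cdca7 (Pearson r 0.823, Spearman rho 0.903), Axin2 (r 0.775, rho 0.733) and Smoc2 (r 0.784, rho 0.661), and Sox9 ran with Rnf43 (r 0.744, rho 0.709). Ephb2 ran opposite to Smoc2 (r -0.560, rho -0.770). These correlations describe 10 libraries that share their groups and their tissue composition.

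None of the 10 genes passed the test in any comparison with normal colorectum. The test was limma on the log2 values of all 5 groups, with Benjamini-Hochberg adjustment over 13051 features and a threshold of 0.05. A feature entered if it was above the floor in both libraries of some group. All 10 genes met that filter, Lgr5 through the NC-miR day 2 and normal groups. With the 4 DSS groups averaged, 0 of 10 genes were called, against 1.42% of all features. At an unadjusted p under 0.05 there were 2 of 10 (Cdca7 and Ascl2), against 16.7% of all features. The median difference of the 10 genes was -0.18 log2, against -0.04 over all features. Cdca7 averaged -0.05 in DSS mice and 0.52 in normal mice, a difference of -0.57 ± 0.25 log2 (SE, limma adjusted p 0.294). The unadjusted 95% interval was -1.13 to -0.0053. Ascl2 averaged -0.15 in DSS mice and 1.08 in normal mice, a difference of -1.24 ± 0.54 (SE, limma adjusted p 0.299), and its floor libraries make that difference an understatement. Cdca7 was lower without overlap between DSS and normal libraries by no more than the tie given above, as were 7.62% of all features. With the most frequent value of each library subtracted, the tied libraries changed order, at 0.91 log2 above the lowest library in miR-29a replicate 1 and 0.89 in normal replicate 2, and 0 genes were lower without overlap. No member of the 10 was higher without overlap, against 5.74% of all features. In whole tissue, fewer cells of a type and less RNA per cell cannot be told apart.

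Each DSS group was also set against the same 2 normal libraries, so the comparisons below share their controls. In miR-29a mice 0 of 10 genes were called, against 0.421% of all features, and 1 had an unadjusted p under 0.05, against 11% of all features. That gene was Rnf43, which averaged 0.66 ± 0.06 in miR-29a mice and 0.06 ± 0.23 in normal mice (SD, n = 2 each), a difference of 0.60 ± 0.20 log2 (SE, limma adjusted p 0.323). Sox9 followed at 0.73 ± 0.33 (SE, limma adjusted p 0.480). Groups did not overlap for 2 genes higher (Sox9 and Rnf43) and 2 lower (Ephb3 and, by the tie, Cdca7), against 21% and 25.2% of all features.

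In miR-29b mice 0 of 10 genes were called, against 0.49% of all features, and 2 had an unadjusted p under 0.05 (Ephb2 and Ascl2), against 15.3%. Ephb2 averaged 0.43 ± 0.12 in miR-29b mice and -0.04 ± 0.11 in normal mice (SD, n = 2 each), a difference of 0.47 ± 0.15 log2 (SE, limma adjusted p 0.204). Ascl2 differed by -1.67 ± 0.68 (SE, limma adjusted p 0.299), with 1 of the miR-29b libraries at the floor. Without overlap between groups, 2 genes were higher (Ephb2 and Sox9) and 5 lower (Lgr5, Ascl2, Smoc2, Znrf3 and Cdca7), against 21.3% and 24.5% of all features. For Lgr5 both miR-29b libraries were at the floor, and the normal libraries lay 0.04 and 0.14 log2 above it. Lgr5 passed the filter only through normal and NC-miR day 2, so its place among the 5 is no result about Lgr5. The pan-epithelial markers were also highest in miR-29b mice, as given above. With each library centred on those markers the median of all features moved to -0.45 log2 for this comparison, Ephb2 differed by 0.05 ± 0.21 (SE), and Znrf3 was called at -0.74 ± 0.20 (SE, limma adjusted p 0.0494). Relative to that shifted median, Ephb2 was at 0.50 and Znrf3 at -0.29. In that setting 7.79% of all features were called.

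In NC-miR mice at day 4, 0 of 10 genes were called, against 0.383% of all features, and 0 had an unadjusted p under 0.05, against 15.2%. The smallest p-values were those of Axin2, at -0.81 ± 0.37 log2 (SE, limma adjusted p 0.344), and Cdca7, at -0.66 ± 0.31 (SE, limma adjusted p 0.358). Groups did not overlap for 1 gene higher (Znrf3) and 4 lower (Ascl2, Axin2, Ephb3 and Cdca7), against 20.5% and 26.9% of all features.

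In NC-miR mice at day 2, 0 of 10 genes were called, against 1.22% of all features, and 2 had an unadjusted p under 0.05 (Cdca7 and Ephb2), against 15.2%. Cdca7 averaged -0.26 ± 0.07 in NC-miR day 2 mice and 0.52 ± 0.19 in normal mice (SD, n = 2 each), a difference of -0.78 ± 0.31 log2 (SE, limma adjusted p 0.287). Ephb2 differed by -0.38 ± 0.15 (SE, limma adjusted p 0.289). Without overlap, 4 genes were lower (Ascl2, Ephb2, Ephb3 and Cdca7), against 29.7% of all features, and 0 were higher, against 18.6%.

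**Figure D2:**
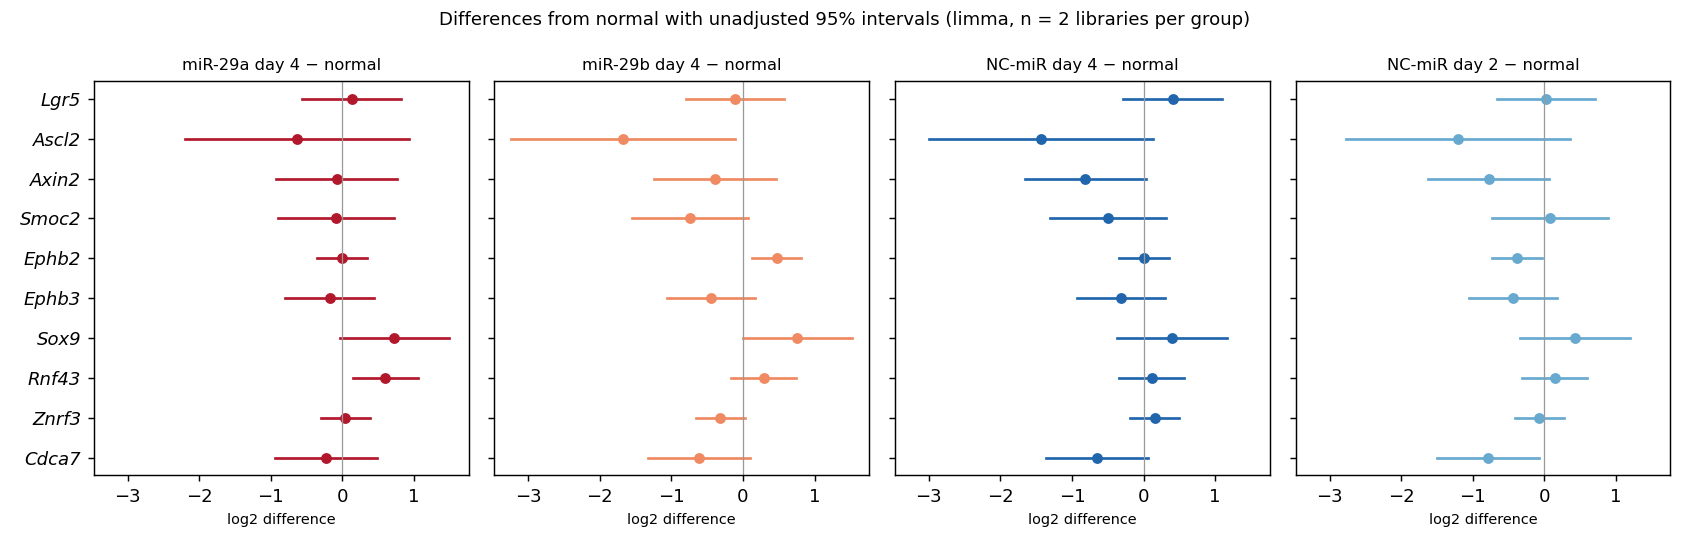
Difference of each DSS group from the normal group in log2, with unadjusted 95% intervals from limma (n = 2 libraries per group), for the 10 genes. Most intervals cross 0, those of Ascl2 are the widest, and the differences of Ephb2 lie between -0.38 in NC-miR day 2 mice and 0.47 in miR-29b mice.

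Between day 4 and day 2 of DSS with NC-miR, 0 of 10 genes were called, against 0.0153% of all features (limma). Ephb2 alone had an unadjusted p under 0.05, against 6.41% of all features. It averaged -0.03 ± 0.05 at day 4 and -0.41 ± 0.09 at day 2 (SD, n = 2 each), a difference of 0.39 ± 0.15 log2 (SE, limma adjusted p 0.754). Smoc2 followed at -0.58 ± 0.35 (SE, limma adjusted p 0.830). Groups did not overlap for 2 genes higher (Ephb2 and Znrf3) and 1 lower (Smoc2), against 19.6% and 16.1% of all features.

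The effect of each miR-29 was asked against NC-miR at the same day of DSS, with the same 2 NC-miR libraries in each comparison. In miR-29a mice 0 of 10 genes were called, and 0% of all features were called either, with 7.63% at an unadjusted p under 0.05 (limma). Rnf43 was the only member of the 10 at an unadjusted p under 0.05. It averaged 0.66 ± 0.06 in miR-29a mice and 0.17 ± 0.16 in NC-miR mice (SD, n = 2 each), a difference of 0.49 ± 0.20 log2 (SE, limma adjusted p 0.644). Axin2 followed at 0.73 ± 0.37 (SE, limma adjusted p 0.680). The median of the 10 genes was 0.37 log2, against 0.02 over all features, and 7 of 10 were above 0. Axin2 and Rnf43 were higher without overlap, against 22% of all features, and 0 genes were lower, against 19.3%.

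In miR-29b mice 0 of 10 genes and 0% of all features were called against NC-miR. Znrf3 and Ephb2 had an unadjusted p under 0.05, against 12.5% of all features. Znrf3 averaged -0.29 ± 0.06 in miR-29b mice and 0.19 ± 0.04 in NC-miR mice (SD, n = 2 each), a difference of -0.47 ± 0.15 log2 (SE, limma adjusted p 0.339). Ephb2 averaged 0.43 ± 0.12 in miR-29b mice and -0.03 ± 0.05 in NC-miR mice, a difference of 0.46 ± 0.15 (SE, limma adjusted p 0.348). With libraries centred on the pan-epithelial markers the Ephb2 difference was 0.13 ± 0.21 (SE), where the median of all features was -0.32. The median of the 10 genes was -0.04 log2, against 0.02 over all features. Groups did not overlap for 2 genes higher (Axin2 and Ephb2) and 1 lower (Znrf3), against 22.7% and 19.3% of all features.

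With both miR-29 groups averaged, 0 of 10 genes were called against NC-miR, with 0.00766% of all features called, and 0 had an unadjusted p under 0.05, against 10.8%. Znrf3 differed by -0.29 ± 0.13 log2 (SE, limma adjusted p 0.464) and Rnf43 by 0.33 ± 0.17 (SE, limma adjusted p 0.499). Axin2 was the only gene whose 4 miR-29 libraries lay above both NC-miR libraries, against 10.9% of all features, and 0 genes lay below them, against 9.9%. It averaged 0.32 in miR-29 mice and -0.26 in NC-miR mice, a difference of 0.58 ± 0.32 (SE), and its unadjusted 95% interval ran from -0.16 to 1.31.

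Among the 3 genes with a seed match, the difference of miR-29a from NC-miR was 0.49 for Rnf43, 0.43 for Cdca7 and 0.14 for Ephb3, and that of miR-29b was 0.17, 0.05 and -0.13. None of these 6 differences passed the test, and 1 of them was below 0. The intervals of Cdca7 ran from -0.28 to 1.14 for miR-29a and from -0.67 to 0.76 for miR-29b, and those of Ephb3 from -0.48 to 0.76 and from -0.75 to 0.49.

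The 2 miRNAs, which share a seed and differ in the remaining bases, were compared directly at day 4. For miR-29a against miR-29b 0 of 10 genes and 0% of all features were called, and 2 genes had an unadjusted p under 0.05 (Ephb2 and Znrf3), against 7.43% of all features. Ephb2 averaged -0.04 ± 0.22 in miR-29a mice and 0.43 ± 0.12 in miR-29b mice (SD, n = 2 each), a difference of -0.48 ± 0.15 log2 (SE, limma adjusted p 0.665). Znrf3 averaged 0.07 ± 0.18 in miR-29a mice and -0.29 ± 0.06 in miR-29b mice, a difference of 0.36 ± 0.15 (SE, limma adjusted p 0.670). Groups did not overlap for 3 genes higher (Smoc2, Rnf43 and Znrf3) and 1 lower (Ephb2), against 19.3% and 19.8% of all features. The interval for Ascl2, from -0.52 to 2.61, shows how little these libraries limit its difference.

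**Figure D3:**
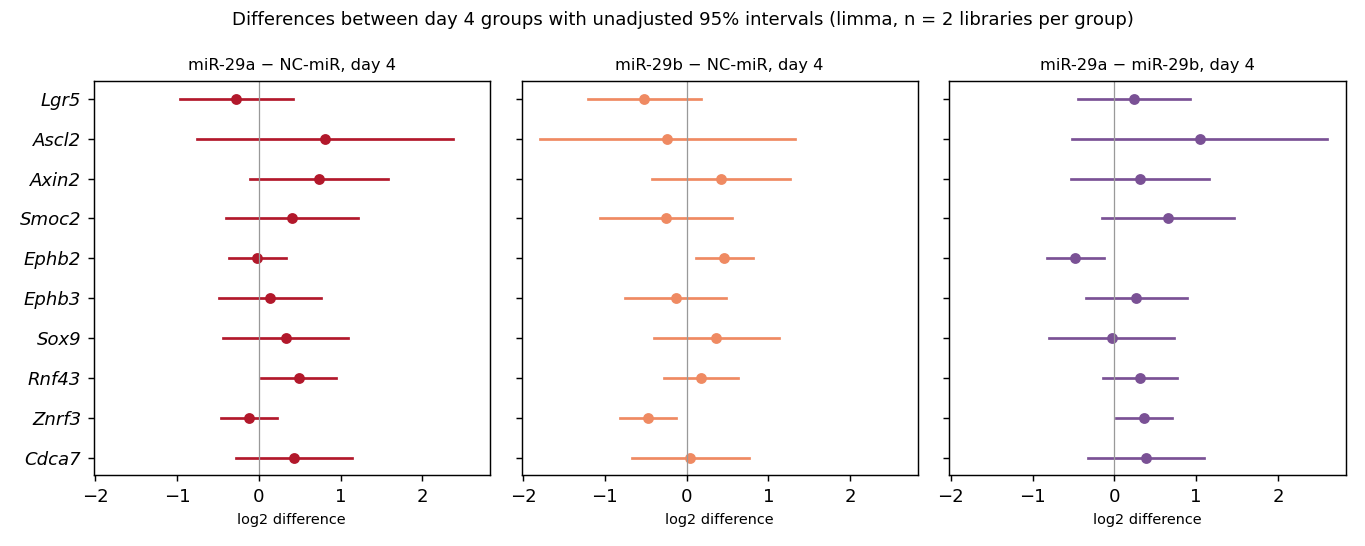
Log2 differences between the day 4 groups for the 10 genes, with unadjusted 95% intervals from limma (n = 2 libraries per group): miR-29a minus NC-miR, miR-29b minus NC-miR, and miR-29a minus miR-29b. The intervals that exclude 0 are those of Rnf43 in the first panel, and of Ephb2 and Znrf3 in each of the other panels.

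A test for any difference among the 5 groups called 0 of 10 genes, against 0.375% of all features, and 1 had an unadjusted p under 0.05, against 14.4%. It was Ephb2, with an unadjusted p of 0.00637 and a limma adjusted p of 0.203.

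The rest of the Wnt pathway was examined with 7 lists of 81 genes covering ligands, R-spondins, receptors, beta-catenin control, TCF factors, antagonists and other targets. Of these 49 passed the filter, and 0 were called in either direction in any of the 10 comparisons (limma). With the 4 DSS groups averaged against normal, 10 of 49 had an unadjusted p under 0.05, against 16.7% of all features. Of the 49 genes 19 were above 0 and the median was -0.07 log2, against -0.04 over all features.

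Of 19 Wnt ligands 4 were tested, and the other 15, Wnt3 among them, were at the floor in all 10 libraries. Wnt2b, a canonical ligand, averaged 0.10 in DSS mice and -0.65 in normal mice, a difference of 0.74 ± 0.37 log2 (SE, limma adjusted p 0.363). Its normal libraries were at -1.37 and 0.08, and the difference was 0.02 ± 0.36 without normal replicate 1 and 1.46 ± 0.36 without normal replicate 2. Rspo1 and Rspo3 were tested and Rspo2 and Rspo4 were at the floor throughout. Rspo1 differed by 0.43 ± 0.46 (SE, limma adjusted p 0.679), and was itself at the floor in 3 libraries, all of them DSS. Of the 10 tested receptors, Fzd1 had the smallest p, at 0.23 (limma adjusted p 0.418), while 4 of the 10 were above 0 and their median was -0.12.

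Downstream of the receptors, Dvl1, a scaffold that passes the signal from Frizzled to the destruction complex, had the smallest p of the 49 genes, at -0.31 ± 0.09 log2 for DSS against normal (SE, limma adjusted p 0.153). In its list of beta-catenin control 5 of 10 genes were above 0, and the median was -0.003. Relative to the normal mean, Dvl1 was at -0.05 and -0.10 in the miR-29b libraries and at 0.06 and -0.06 in the normal libraries. Tcf7, a TCF factor also abundant in T cells, differed by -0.71 ± 0.23 (SE, limma adjusted p 0.178), and by -1.19 ± 0.29 at day 2 with NC-miR (SE, limma adjusted p 0.112). Both NC-miR day 2 libraries and miR-29b replicate 1 were at the floor for Tcf7, so these differences are understated. Kremen2, a receptor for the Dkk antagonists, differed by -0.57 ± 0.21 (SE, limma adjusted p 0.226). It was at the floor in NC-miR day 4 replicate 2 and NC-miR day 2 replicate 1. Among 7 other tested targets, Tnfrsf19, also called Troy, differed by -0.68 ± 0.23 (SE, limma adjusted p 0.209). Sp5, Prox1 and Tdgf1 were at the floor in all 10 libraries.

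The Wnt gene with the smallest p was a secreted Frizzled-related antagonist in 4 of the 10 comparisons. Sfrp2 differed by 1.03 ± 0.26 log2 in miR-29b mice against normal mice (SE, limma adjusted p 0.139), and by 0.70 ± 0.23 in both miR-29 groups against NC-miR (SE, limma adjusted p 0.417). Sfrp4 differed by 0.83 ± 0.28 in miR-29a mice against NC-miR mice (SE, limma adjusted p 0.620), and by 1.15 ± 0.28 in miR-29a against miR-29b mice (SE, limma adjusted p 0.665). In miR-29b mice against NC-miR mice it was Jun, a target that injury also induces, at 1.02 ± 0.25 (SE, limma adjusted p 0.335). None of these passed the test. The 4 comparisons share libraries. Of the 10 tested antagonists, 2 were above 0 in miR-29b mice against normal mice (median -0.15 log2, lowest -1.02). Against NC-miR, 9 of 10 were above 0 in both miR-29 groups averaged (median 0.28) and 9 of 10 in miR-29a mice (median 0.32). In miR-29a against miR-29b mice 6 of 10 were above 0 (median 0.02).

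Markers of other crypt compartments gave the setting for the 10 genes. Of 13 further crypt stem markers 9 were tested and 0 were called for DSS against normal. Sox4 had the smallest p, at -0.45 ± 0.12 log2 (SE, limma adjusted p 0.127), while Olfm4, a stem cell marker in human colon, was at the floor in 9 libraries. Sox4 was not typical of the 9 tested markers, of which 4 were above 0, with a median of -0.02. Of 10 proliferation genes 0 were called, 9 were below 0 and the median was -0.32. Pcna had the smallest p, at -0.32 (limma adjusted p 0.456). Mean proliferation relative to normal was -0.42 and -0.24 in the miR-29a libraries, -1.14 and -0.18 in the miR-29b libraries, -0.22 and 0.42 in NC-miR mice at day 4, and -0.41 and 0.03 in NC-miR mice at day 2. In the lowest of them, miR-29b replicate 1, Lgr5 and Ascl2 were at the floor and Cdca7, Smoc2, Ephb3 and Znrf3 were at their lowest. In the same library Ephb2, at 0.35, was second highest of the 10 libraries, and Sox9, at 0.29, was above both normal libraries. Lgr5 and Ascl2 were also both at the floor in NC-miR day 4 replicate 1, whose mean proliferation was -0.22.

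Of 7 tested genes of mature absorptive colonocytes, 3 rose in DSS mice and 5 were above 0. The chloride-bicarbonate exchanger Slc26a3 rose by 0.93 ± 0.14 log2 (SE, limma adjusted p 0.0207), the water channel Aqp8 by 1.30 ± 0.21 (SE, limma adjusted p 0.0248) and the carbonic anhydrase Car1 by 1.29 ± 0.23 (SE, limma adjusted p 0.0337). The 2 genes below 0 were Guca2a, at -0.36, and Ceacam1, at -0.11, and neither was called. Without normal replicate 2 the differences of Aqp8 and Car1 were each 0.84 log2 (limma adjusted p 0.166 and 0.274). That of Slc26a3 was 0.91 without normal replicate 2 (limma adjusted p 0.236) and 0.95 without normal replicate 1 (limma adjusted p 0.152). Aqp8 also missed the threshold without any of 4 DSS libraries (all of them miR-29, adjusted p 0.0537 to 0.0566) and Car1 without any of 7 (all but NC-miR day 2 replicate 2, adjusted p 0.0510 to 0.0732). With libraries centred on the pan-epithelial mean Slc26a3 had an adjusted p of 0.0971. The list mean lay 0.68 to 0.70 log2 above normal in the miR-29a libraries, 0.88 to 0.91 in the miR-29b libraries, 0.41 to 0.57 in the NC-miR day 4 libraries and 0.23 to 0.28 in the NC-miR day 2 libraries. Goblet and deep crypt secretory genes had 0 of 8 called, with Fcgbp at 0.52 ± 0.13 (SE, limma adjusted p 0.1002). Of 5 genes of regenerating epithelium 0 were called, with Ly6a at 1.34 ± 0.31 (SE, limma adjusted p 0.0833). Ly6a was the highest of the 5, of which 3 were above 0, with a median of 0.13.

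Of all the lists, B cell genes had the median farthest from 0 for DSS against normal. All 6 tested were below 0, with a median of -1.57 log2, and 0 were called. Fcer2a had the smallest p, at -2.41 ± 0.46 (SE, limma adjusted p 0.0503). The list mean was -0.79 and -1.76 in the miR-29a libraries, -1.98 and -1.66 with miR-29b, -1.99 and -1.74 with NC-miR at day 4, -2.42 and -1.04 with NC-miR at day 2, and -0.07 and 0.07 without treatment. The part of lymphoid tissue in the values of the 10 genes was not tested. In the other lists 0 genes were called for DSS against normal, with Vil1 of the epithelium at 0.27, Krt10 of squamous epithelium at 0.80, Actg2 of smooth muscle at 0.61, Bmp7 of the crypt stroma at 0.50, Cd4 at 0.61, Vwf of the endothelium at 0.38, Cidec of adipocytes at 1.18 and S100b of enteric glia at -0.63 log2. Each is the gene of smallest p in its list. Bmp7 differed from most of the crypt stroma list, where 3 of 9 tested genes were above 0 and the median was -0.11.

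**Figure D4:**
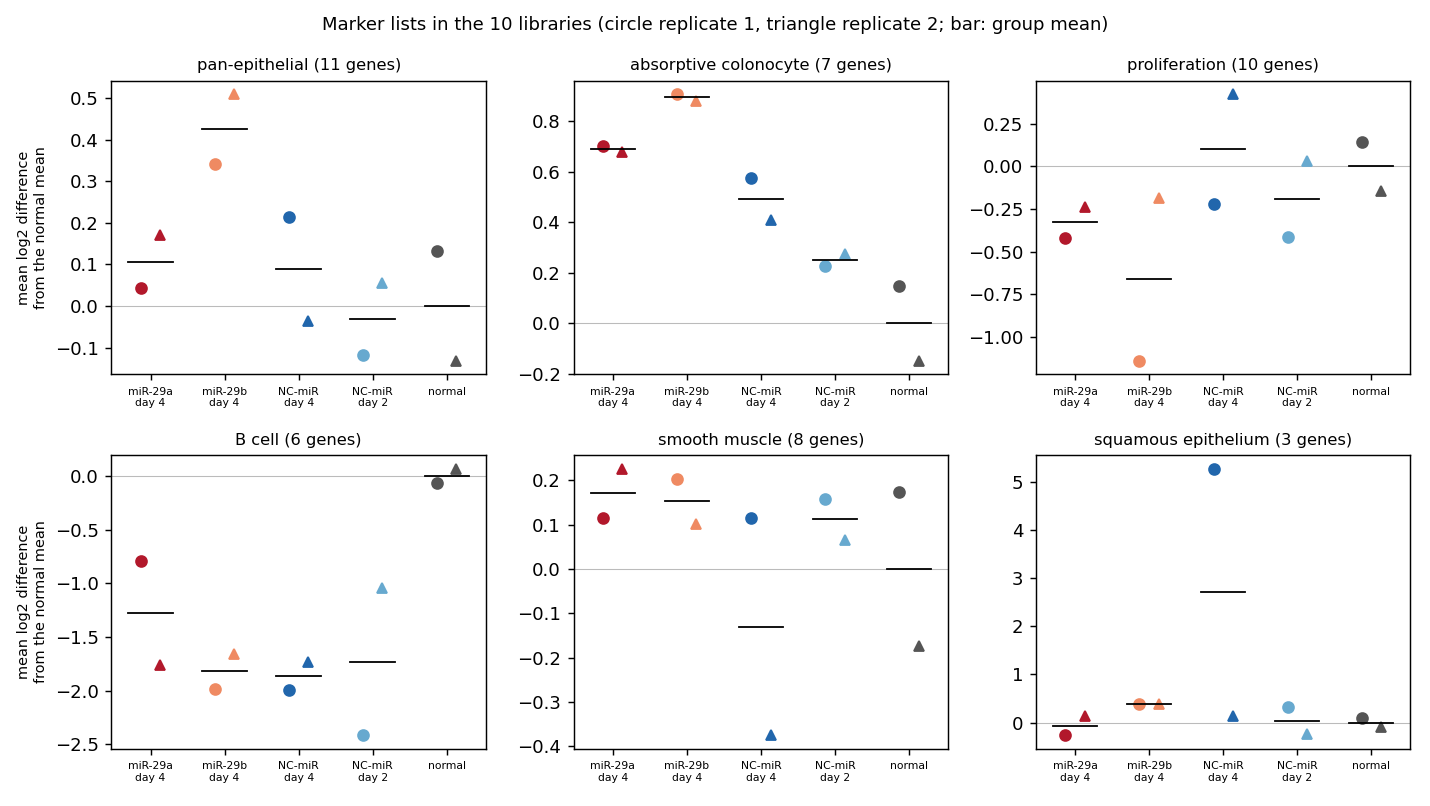
Mean log2 value of marker lists in each library, relative to the normal mean. The lists are pan-epithelial, absorptive colonocyte, proliferation, B cell, smooth muscle and squamous epithelium. The B cell list is below normal in all 8 DSS libraries (-2.42 to -0.79), the absorptive list above it in all 8 (0.23 to 0.91), and the squamous list is at 5.28 in NC-miR day 4 replicate 1.

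Over the 10 libraries the named genes that ran most like Lgr5 were Adh6a (Pearson r 0.962), Ube3c (0.949), Upf3b (0.917), Sltm (0.903) and Smarcc1 (0.903). Their Spearman rho was 0.491 for Adh6a, 0.818 for Ube3c, 0.915 for Upf3b, 0.564 for Sltm and 0.539 for Smarcc1. Like Lgr5, each was highest in NC-miR day 4 replicate 2, at 0.30 to 0.37 log2. Adh6a was itself at the floor in 7 libraries, and Lgr5 in 4. Those most like Axin2 were Chpf2 (r 0.960), Gimap7 (0.959), Syn2 (0.903), Itgal (0.894) and Coro1a (0.894). Gimap7, Itgal and Coro1a are genes of lymphocytes and other leukocytes, and the B cell list, like Axin2, was highest in the DSS mice in miR-29a replicate 1. Itgal was itself at the floor in 3 libraries. The T cell and myeloid list had its highest mean, 1.05 log2 above normal (median 0.06), in NC-miR day 2 replicate 1, where Axin2 was lowest. The part of leukocytes in the level of Axin2 was not tested.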

How the data were processed

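RNA of colorectum was made into stranded mRNA libraries (TruSeq, after miRNeasy extraction), per the labels' protocols. TopHat2 2.0.13, Bowtie2 2.2.3, SAMtools 0.1.19, Cuffnorm 2.2.1 and mm10 are named in the submitters' processing notes, and the settings are not given in the sources used here. The column name in the file headers is FPKM, but the deposited values are log2 values relative to a baseline of each gene. Base 2 was read from the low values, of which 99.5% of 5813 lay within 0.1 step of a grid of 6 digits, against 19.8% for base e and 21.6% for base 10. A feature was counted at the floor where 2 or more libraries shared its lowest value after each library's most frequent value was subtracted, and floor libraries were treated as tied when groups were checked for overlap. The files hold no read counts, so the depth is unknown and no counting interval is given.

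Group means of all 10 libraries were fitted with limma 3.58.1 in R 4.3.3 (5 residual and 3.26 prior degrees of freedom), with adjustment over all 13051 features tested. The median standard error of a difference between groups was 0.18 log2. The script was tested on simulated data. The 10 genes, the 22 lists (206 of 208 genes found, 156 tested) and the tests were chosen with earlier results of these data known. Printed with a test were the called genes or, with none called, the 2 of the 10 genes and the 1 gene of each other list with the smallest p; a few further values of the 10 genes (seed matches, and centring on epithelial markers) were added after values were seen. Likeness was ranked by Pearson r, leaving out provisional gene names. Libraries of a group are 2 mice per the labels. The p-values set a difference against the spread between mice of a group, pooled over the 5 groups and moderated by that of all features. Alternatives covered filters, scaling, a robust fit, the samples fitted, a replicate block and each library left out. Of the 10 genes 4 overlap an antisense gene (Lgr5, Axin2, Smoc2 and Rnf43), and the strand setting of the counting is not given, so reads of both may be mixed.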

Additional observations from a re-analysis of the deposited data

How the results depend on the processing

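The count of called genes among the 10 stayed at 0 in every comparison under all 18 alternative settings, with a single exception. For miR-29b against normal, centring each library on the pan-epithelial mean called 1 gene (Znrf3, limma adjusted p 0.0494), and the cause was not tested. Leaving out each library in turn gave counts from 0 to 0 in all 10 comparisons and in the test over 5 groups. With the replicate number as a block (replicate block) the count was 0 in each, and among all features 35 were called for miR-29b against normal, against 64 without the block, 30 against 50 for NC-miR day 4 against normal and 28 against 49 in the test over 5 groups. The numbers were not taken as pairs: the deviations of same-numbered libraries correlated between -0.24 and 0.11, with 1 of 10 group pairs over 0.1. Subtracting the most frequent value of each library, an alternative chosen after seeing the data, changed overlap for 4 of 100 gene comparisons: Cdca7 then overlapped normal in the miR-29a and in the averaged DSS comparison, and Smoc2 (NC-miR day 2) and Sox9 (NC-miR day 4) were higher than normal without overlap. The test over 5 groups has no form with only the groups compared. Of 769 values for single genes 742 stayed on their side of the threshold, 19 lost a call, 8 gained one and 0 changed sign as a call. Among these, 358 values belong to the 10 genes, for their differences of smallest p, and all 358 kept their side. The losses and gains were in genes of the other lists. Without the filter on low values Slc26a3, Aqp8 and Car1 lost their calls (limma adjusted p 0.0683, 0.103 and 0.128). The floor limits Lgr5 and Ascl2 most, and 2 libraries a group limit all 10 genes.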
